A study of Saccharomyces cerevisiae with 12 samples.

Results

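The ageing time course of wild type budding yeast mother cells was followed here at the level of DNA content, window by window along every chromosome and the mitochondrial genome. The members are the 3 wild type libraries of the 12 libraries in the series, chosen by their labels: log phase, 24 hours and 48 hours, with 1 library at each time. The table holds 2441 windows of 25 kb placed every 5 kb, of which 2423 are nuclear and 18 mitochondrial. The signal of each aged library was divided, window by window, by the signal of the log phase library.

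All 3 libraries came from the same diploid strain carrying the mother enrichment program (MEP). In this system Cre recombinase fused to an estradiol-binding domain (SCW11pr-Cre-EBD78, placed at the deleted HO locus on both homologues) is expressed from the daughter-specific SCW11 promoter. Once β-estradiol is present it excises loxP-flanked UBC9 and CDC20 in newborn daughters, which then stop dividing, while mothers continue to age. The background also carries trp1Δ63, ade2::hisG, met15Δ::ADE2/+, ura3Δ0, and his3, leu2 and lys2/+ alleles, and all cells grew in YPD, a rich glucose medium, at 30°C. Aged mothers were biotin-labelled when young, grown for 24 or 48 hours with β-estradiol, fixed in ethanol and recovered on Percoll gradients and streptavidin beads. Log phase cells were taken from the unaged culture and saw no estradiol. Age, estradiol treatment and purification of the mothers therefore cannot be told apart in these ratios. With 1 library per time there is no replicate check, no test between times was made, and intervals given below cover counting error only.

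The ribosomal DNA (rDNA) is a tandem array on chromosome XII, each repeat holding the genes of the rRNAs, an origin of replication and a replication fork barrier bound by Fob1. Recombination within the array releases extrachromosomal rDNA circles (ERCs), which replicate from that origin and stay in the mother. The part of chromosome XII on the telomeric side of the array, called ChrXIIr, has no centromere of its own once separated from the left part. Mitochondrial DNA is replicated independently of the cell cycle and encodes subunits of the respiratory chain and ATP synthase.

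Sequences from RefSeq (R64) show the elements on which these regions differ. ARS1200-1 is the origin annotated in the first reference rDNA repeat, at chrXII:458991-459097, printed on the minus strand with the best match to the ARS consensus sequence in capitals (11 of 11 positions). CEN12 is the only centromere of chromosome XII (chrXII:150828-150947, minus strand) and CEN11 lies at the edge of the stretch with the lowest ratios of the nucleus (chrXI:440129-440246, minus strand), both with the annotated elements CDEI and CDEIII in capitals around the lower-case CDEII. ORI5 is an annotated origin of the mitochondrial genome (Mito:82329-82600, plus strand), with its 4 runs of 5 or more G or C in capitals.
ARS1200-1: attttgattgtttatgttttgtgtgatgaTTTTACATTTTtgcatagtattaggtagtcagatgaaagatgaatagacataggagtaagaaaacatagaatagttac
CEN12: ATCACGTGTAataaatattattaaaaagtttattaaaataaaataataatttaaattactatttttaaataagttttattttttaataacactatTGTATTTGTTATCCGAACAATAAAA
CEN11: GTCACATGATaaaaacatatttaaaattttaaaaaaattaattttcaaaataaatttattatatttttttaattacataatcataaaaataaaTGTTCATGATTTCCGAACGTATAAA
ORI5: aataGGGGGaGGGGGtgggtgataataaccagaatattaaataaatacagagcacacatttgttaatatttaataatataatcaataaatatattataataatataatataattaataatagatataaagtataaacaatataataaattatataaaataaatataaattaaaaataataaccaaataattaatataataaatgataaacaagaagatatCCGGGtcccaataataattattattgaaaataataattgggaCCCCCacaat
The printed centromeres and ARS1200-1 are AT-rich, with 12.5% GC in CEN12, 13.6% in CEN11 and 27.1% in ARS1200-1, against 38.2% in the median nuclear window. The whole rDNA unit of 9137 bp holds 43.8% GC and the mitochondrial genome 17.1%.

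The make-up of the DNA libraries changed at each time point. Signal in the bins holding the 2 reference rDNA repeats was 11.7% of the total in log phase, 45.6% at 24 hours and 58.3% at 48 hours. Mitochondrial DNA was 0.790% of the total in log phase, 2.39% at 24 hours and 7.71% at 48 hours. The rest of the nuclear genome was 87.5% of the total in log phase, 52.0% at 24 hours and 34.0% at 48 hours. Its summed signal was 6381416, 6704252 and 6938289 in the same order, a much smaller change than that of its share. This signal already carries 1 size factor per library, so its small change depends on that scaling. The libraries held 8942081 reads in log phase, 7878841 at 24 hours and 12147987 at 48 hours in windows that do not overlap. A full nuclear window had a median of 15571, 7777 and 7524 reads in that order, so the 48-hour library, the largest of the 3, was no deeper over the chromosomes than the 24-hour library. For a window of median depth, counting error spans 0.973 to 1.03 times its ratio at either time. 

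In the authors' scaled signal, most of the nuclear genome outside chromosome XII lay close to its log phase level. That level is relative to 1 size factor per library and is no measure of DNA per cell. Scaled to summed signal instead, the median window there stood at 0.562 at 24 hours and 0.353 at 48 hours. The 2207 windows there had a median ratio of 0.994 at 24 hours and 0.988 at 48 hours. The spread between windows was wider than counting error: over the 2132 full-length windows the SD of the log2 ratio was 0.147 at 24 hours and 0.173 at 48 hours, where counting alone gives 0.0202 and 0.0204. The 5th and 95th percentiles of the ratio were 0.874 and 1.23 at 24 hours and 0.870 and 1.31 at 48 hours. The upper tail therefore lay further from 1 at 48 hours, while the lower percentile was nearly the same at both times.

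Ratios at or above 1.2-fold were found in 208 of 2423 nuclear windows at 24 hours (8.58%) and in 331 at 48 hours (13.7%). Ratios at least 1.2-fold lower were found in 12 windows at each time (0.495%). Chromosome XII held 40 of the higher windows at 24 hours and 99 at 48 hours. Chromosomes III and IX held no higher window at either time, and chromosome VIII none at 24 hours and 3 at 48 hours. At 48 hours the lower windows lay on chromosomes IV and XI (4 each) and XIII and XV (2 each). The 24-hour and 48-hour ratios share the log phase library, so neither is a repeat of the other.

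**Figure D1:**
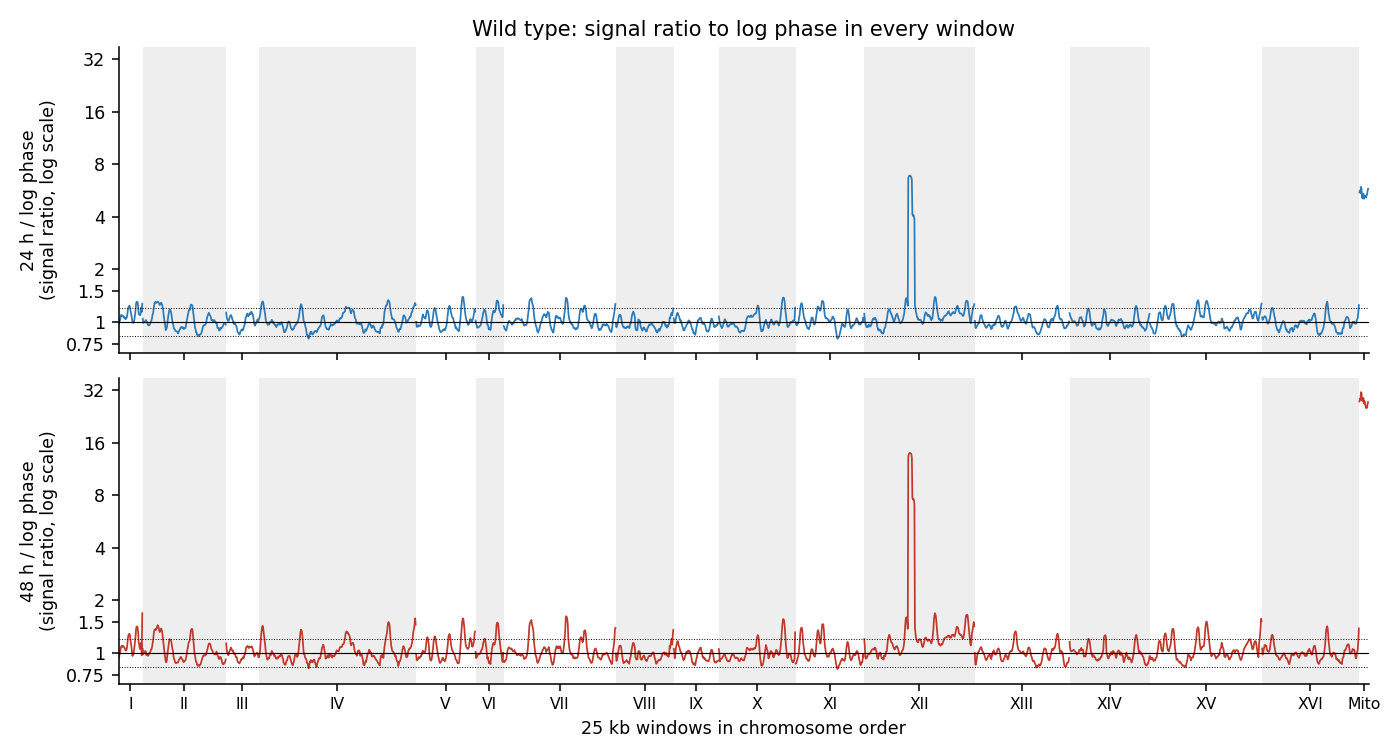
Ratio of signal to log phase in wild type in each 25 kb window (log scale), windows in chromosome order, with 24 hours above and 48 hours below. Dotted lines mark 1.2-fold higher and lower. The rDNA of chromosome XII and the mitochondrial genome stand far above every other region, with medians of 6.71 and 5.38 at 24 hours and 13.5 and 27.6 at 48 hours.

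Whole chromosomes differed little from each other apart from XII. Among the other 15, the median ratio per chromosome ran between 0.951 (VIII) and 1.09 (I) at 24 hours, and between 0.957 (VIII) and 1.09 (I) at 48 hours. Chromosomes with a median above 1 numbered 7 at 24 hours and 4 at 48 hours, but these medians lie so close to 1 that the count turns with the scaling: it was 7 at both times after recentring on windows outside XII, 8 at both times after GC correction, and 4 and 5 without repeat windows. Chromosome I, the shortest at 230218 bp, was also the richest in GC, with a median of 39.9% per window. After GC correction its medians were 1.05 at 24 hours and 1.04 at 48 hours. Chromosome VI came next after I in the uncorrected medians, at 1.08 and 1.04, and stood at 1.05 and 1.03 after GC correction. After that correction V and XV each stood at 1.04 at 48 hours, level with I and above VI. Without repeat windows I stayed at 1.09 at both times, while VI stood at 1.06 and 1.01. Over the 15 chromosomes the rank correlation of the median ratio with length was -0.34 at 24 hours and -0.16 at 48 hours, and with GC 0.16 and 0.079. These are descriptions over chromosomes of 1 pair of libraries each.

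Arms of 1 chromosome could differ more than whole chromosomes. The right arm of I had medians of 1.13 and 1.14 at 24 and 48 hours, and the right arm of VI 1.14 and 1.11, against 0.968 and 0.990 for the left arm of VI. On chromosome II the left arm stood at 1.06 and 1.08 and the right arm at 0.958 and 0.960. At the low end, the right arm of IX had 0.962 and 0.912. ChrXIIr, with 1.11 and 1.23, was the highest chromosome arm or arm segment at 48 hours, and at 24 hours it was below the right arms of VI and I.

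**Figure D2:**
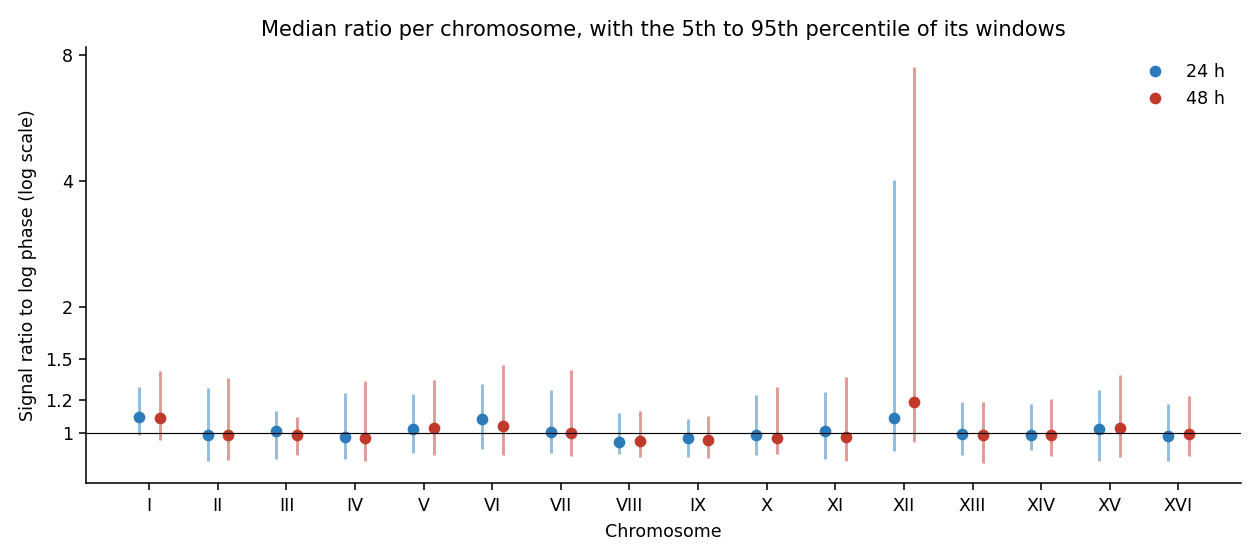
Median ratio of signal to log phase for each chromosome (points, log scale), 24 hours left of 48 hours, with lines over the 5th to 95th percentile of its windows. Outside chromosome XII the medians lie between 0.951 and 1.09, and the long upper lines of XII come from the windows that hold rDNA.

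The rDNA gave the largest nuclear change. All 12 windows that touch an annotated rRNA gene were higher at both times, with a median of 6.71 at 24 hours and 13.5 at 48 hours. The window with the highest ratio at both times, at 445001 to 470000 of chromosome XII, had a signal of 853214 in log phase, 5871728 at 24 hours and 11914140 at 48 hours, ratios of 6.88 (95% counting interval 6.87 to 6.90) and 14.0 (13.9 to 14.0). The 8 windows holding any sequence of the 2 reference repeats ran between 6.44 and 6.88 at 24 hours and between 13.1 and 14.0 at 48 hours. The 4 others, which touch only the separate 5S genes among the ASP3 copies, ran between 4.02 and 4.13 at 24 hours and between 7.48 and 7.74 at 48 hours. All 4 also contain the 5 kb at 490001 to 495000, described below. At 48 hours that stretch gave 195354 of the signal of 267159 in the first of them and of 249128 in the last. Between 24 and 48 hours the median rDNA window gained a further 2.02-fold.

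Bins of 5 kb, solved from the overlapping windows, separated the rDNA from its neighbours. This finer reading was added after the data were seen. The 4 bins over the 2 reference repeats (RDN37-1, RDN37-2 and their 5S genes) had ratios between 6.81 and 7.10 at 24 hours and between 13.8 and 14.3 at 48 hours. The bin at 490001 to 495000, just past the last annotated rRNA gene and holding RRT15, MAS1 and SHH4, had 16854 in log phase, 99748 at 24 hours and 195354 at 48 hours, ratios of 5.92 and 11.6. It contains 497 bp that lie in stretches of 50 bases or more identical to the rDNA unit, although no rRNA gene is annotated there.

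Neighbouring bins with more of such sequence had the larger ratios. The bin at 485001 to 490000 has 411 identical bp and ratios of 3.55 and 6.59 at 24 and 48 hours. The bins at 470001 and 480001 have 119 identical bp each, with ratios of 2.22 and 3.48 in the first and 2.17 and 3.42 in the second. The bin at 475001 to 480000, which lies inside the annotated locus but has 0 identical bp, stood at 1.13 (1.07 to 1.19) and 1.27 (1.21 to 1.34).

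ChrXIIr was above its log phase level in every 25 kb window at 48 hours. It covers 588708 bp with 291 annotated protein-coding genes, and its 118 windows had a median signal of 13426 in log phase, 14511 at 24 hours and 16014 at 48 hours. The median ratio was 1.11 at 24 hours, with 113 of 118 windows above 1 and 22 at or above 1.2-fold. At 48 hours it was 1.23, with all 118 windows above 1 and 75 at or above 1.2-fold, or 63.6%, beside the 13.7% over all nuclear windows. The first window of ChrXIIr holds the 497 rDNA-identical bp and reached 3.87 and 7.12; without it the median was 1.11 and 1.23. With each library scaled to its summed signal instead, the ratio of ChrXIIr was 0.627 at 24 hours and 0.438 at 48 hours, against 0.562 and 0.353 for the median window outside XII.

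In 5 kb bins, all 117 full bins of ChrXIIr were above 1 at 48 hours, and 102 of them at 24 hours, against 997 at 48 hours and 1033 at 24 hours of the 2192 bins outside chromosome XII. The 5th percentile at 48 hours was 1.07 on ChrXIIr and 0.835 outside XII, and the 95th percentile was 1.61 and 1.33. From the last rRNA gene outwards, the first bin with no rDNA-identical sequence (PUS5, SEC10, RPS31 and UPS2) stood at 1.31 and 1.57 at 24 and 48 hours. The next, with APS1, DPH5 and IDP2, stood at 1.35 and 1.48. Between 50 and 100 kb from the array the median was 0.990 at 24 hours and 1.14 at 48 hours.

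The level along ChrXIIr was not flat and showed no steady decline with distance. Between 200 and 250 kb from the array the median bin was 1.26 at 24 hours and 1.43 at 48 hours, between 250 and 300 kb 1.03 and 1.12, and between 500 and 550 kb 1.24 and 1.51. The highest bin away from the array, with DIF1 (a regulator of ribonucleotide reductase location), CAR2 (ornithine transaminase) and LSM3, had 3260 in log phase, 5019 at 24 hours and 6178 at 48 hours, ratios of 1.54 and 1.90. The next held YLR278C and RSO55 and reached 1.54 and 1.87. The DIF1 and RSO55 bins had 46.2% and 40.9% GC. Their log phase signals, 3260 and 3435, lay above the 2644 of the median ChrXIIr bin. Outside XII, windows richer in GC or in log phase reads also tended to have higher ratios, as given below. A neighbour of the DIF1 bin carries SIR3, a component of silent chromatin, and stood at 1.31 and 1.69.

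The lowest bin of ChrXIIr held IFH1, a co-activator of ribosomal protein genes, and BUR2, a cyclin. Its signal was 2755 in log phase, 2586 at 24 hours and 2841 at 48 hours, a ratio of 0.939 (0.884 to 0.997) and 1.03 (0.972 to 1.09). At 48 hours its counting interval includes 1. The bin with EST2, the catalytic subunit of telomerase, stood at 0.951 and 1.05, also with an interval that includes 1 at 48 hours (0.987 to 1.11). The bins starting at 590001, 665001, 675001 and 1055001 likewise had intervals that include 1 at 48 hours. BNA5, a gene of NAD synthesis on ChrXIIr, lay in a window at 1.12 and 1.22.

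**Figure D3:**
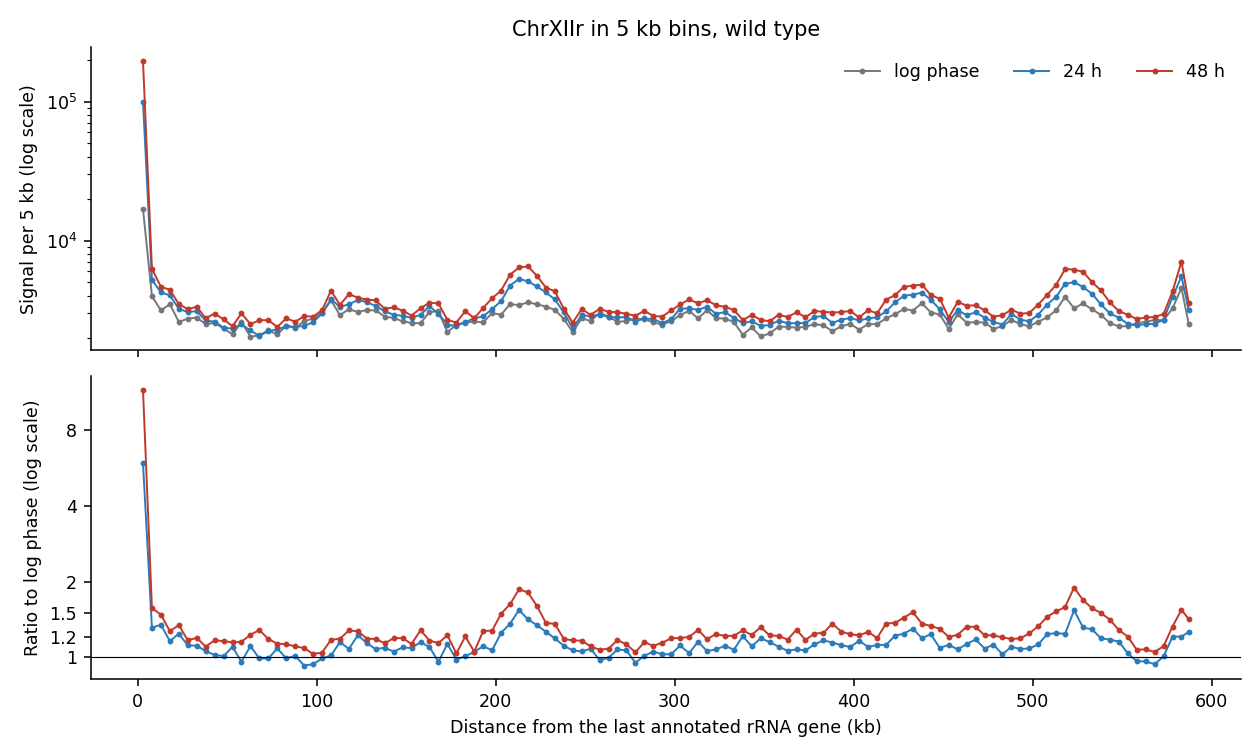
Signal per 5 kb bin (upper, log scale) and its ratio to log phase (lower, log scale) along ChrXIIr in wild type, against distance from the last annotated rRNA gene. The first bin holds rDNA-identical sequence and reaches 11.6 at 48 hours; beyond it all bins at 48 hours lie between 1.03 and 1.90.

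Left of the array, chromosome XII changed less. Its 86 windows had medians of 1.02 at 24 hours and 1.03 at 48 hours, and 54 of them were above 1 at 48 hours. The 28 windows left of the centromere stood at 0.964 and 1.00, and the 58 between centromere and array at 1.04 and 1.05. All 12 windows of the left arm at or above 1.2-fold at 48 hours lay between centromere and array, 7 of them in a run ending next to it. They are 14.0% of the left arm, close to the 13.7% of all nuclear windows. The top window of that run, at 410001 to 435000, held PDC5 (pyruvate decarboxylase), RRN5 (a factor for RNA polymerase I transcription), PUT1 and SLX4 among others, with 17489 in log phase, 23931 at 24 hours and 27931 at 48 hours. Its ratios were 1.37 (1.34 to 1.40) and 1.60 (1.56 to 1.63), its end lies 16.6 kb from the first rRNA gene, and it holds 0 bp identical to the rDNA unit. The window nearest the array without rDNA, at 425001 to 450000, was at 1.24 and 1.37. Bins of 5 kb could not be solved left of the array, where 54 of them came out negative.

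Mitochondrial DNA gave the largest ratios at 48 hours. All 18 windows were higher, between 5.07 and 5.94 at 24 hours and between 25.3 and 31.1 at 48 hours, with medians of 5.38 and 27.6. The median window signal was 14998 in log phase, 79202 at 24 hours and 404201 at 48 hours. Mitochondrial read density was also set against the median full nuclear window outside XII. Per haploid nuclear genome it came to 1.33 mitochondrial genomes in log phase, 7.18 at 24 hours and 36.9 at 48 hours. These values carry no correction for GC content or DNA recovery, so they are not measured copy numbers. Between 24 and 48 hours the median window gained 5.10-fold, where the rDNA gained 2.02-fold and ChrXIIr 1.12-fold. In pooled cells, more mitochondrial DNA in every mother and much more in some of them cannot be told apart.

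All 10 mitochondrial genes on the list chosen for naming (COX1, COX2, COX3, COB, ATP6, ATP8, OLI1, VAR1 and the 15S and 21S rRNA genes) lay in windows between 25.3 and 31.1 at 48 hours. COX1, COX2 and COX3 encode cytochrome c oxidase subunits and COB cytochrome b. ATP6, ATP8 and OLI1 encode ATP synthase subunits, and VAR1 a protein of the mitochondrial ribosome.

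At 5 kb the mitochondrial genome was uneven. The bin with the lowest log phase signal, within COX1, had 1030 in log phase, 9662 at 24 hours and 44343 at 48 hours, and the highest ratios of the genome, 9.38 (8.82 to 9.97) and 43.0 (40.7 to 45.6). The next bin of COX1 had 1361, 9871 and 49252, ratios of 7.25 and 36.2, and a bin of COB reached 6.79 and 35.4. The bin at the start of COX1 had 3421, 15184 and 74337 and the lowest ratio at 48 hours, 21.7 (21.1 to 22.4). The bin with OLI1 and VAR1 had 4303, 18608 and 99134 and the lowest ratio at 24 hours, 4.32 (4.18 to 4.47). At each time the intervals of the highest and the lowest bin do not overlap. These bins were picked as extremes from the same values, and the intervals cover counting error only.

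The bins that were low in log phase were those with the larger ratios. Over the 17 full bins the rank correlation of the 48-hour ratio with the log phase signal was -0.78, with GC content 0.65, and of GC content with the log phase signal -0.62. The log phase signal is the denominator of the ratio, and neighbouring bins share 1 molecule, so these are descriptions. The highest bin exceeded the lowest 5.01-fold in log phase, 2.99-fold at 24 hours and 3.09-fold at 48 hours. The bin with ORI5, printed above, and part of COX3 had the highest signal of the genome at all 3 times, 5162, 28929 and 137128, with ratios of 5.60 and 26.6.

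**Figure D4:**
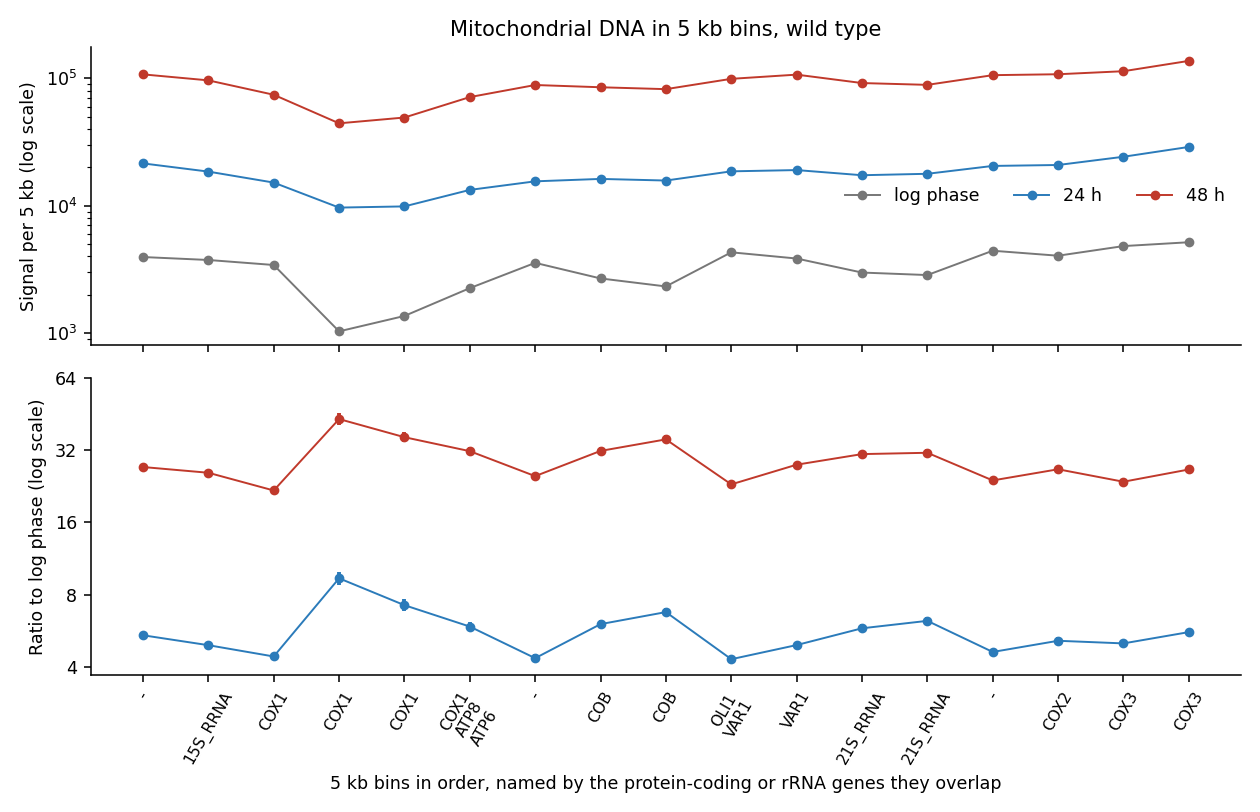
Signal per 5 kb bin of the mitochondrial genome (upper, log scale) and its ratio to log phase (lower, log scale), bins in order and named by the genes they overlap, with vertical lines for 95% counting intervals. The middle 2 bins of COX1 are lowest in signal and highest in ratio, at 43.0 and 36.2 at 48 hours.

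Apart from chromosome XII, the higher windows fell into regions. Runs of at least 3 neighbouring windows at 1.2-fold or more formed 28 regions on 12 chromosomes at 24 hours and 33 regions on 12 chromosomes at 48 hours. Without windows that touch repeats, which breaks runs, 18 and 25 regions were left. The strongest by median lay on the right arm of VII and held 27 protein-coding genes at 24 hours and 31 at 48 hours. Its top window, at 610001 to 635000, carries ERG25 (a sterol biosynthesis enzyme), ADE6 (purine synthesis), SPT4 (a transcription elongation factor) and VHT1 (the biotin transporter), with 17084 in log phase, 23470 at 24 hours and 27655 at 48 hours. The ratios were 1.37 (1.34 to 1.40) at 24 hours and 1.62 (1.59 to 1.65) at 48 hours. Within it, the 5 kb bin over ART5 and ROM1 (an exchange factor for Rho1) had 3657, 6073 and 8105, ratios of 1.66 and 2.22, the highest bin ratio at 48 hours outside XII and the mitochondrial genome.

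Other leading regions had similar sizes. On chromosome X, the top window at 630001 to 655000 holds STE24 (a prenyl protein protease), JHD2 (a histone demethylase) and ATP2 (an ATP synthase subunit), and had 18169, 25051 and 28346, ratios of 1.38 and 1.56. On chromosome V, at 455001 to 480000 with SPT15 (TATA-binding protein), FTR1 (iron permease), UBP3 and OXA1, the values were 17371, 24197 and 27341, ratios of 1.39 and 1.57. On chromosome VI, at 210001 to 235000 with PHO4 (the phosphate regulator), SMC2 (condensin), MET10 and RSC8, they were 17776, 23561 and 26467, ratios of 1.33 and 1.49. These 4 top windows were picked for their high ratios, so it follows from that choice that they clear counting error. Each was further above its log phase level at 48 hours than at 24 hours.

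A further 2 regions completed the leading sets. At 24 hours a second stretch of VII, with a top window at 270001 to 295000 holding MET13, RPS2, NAB2, SNF4 and CDC20, had 18866, 25780 and 29073, ratios of 1.37 and 1.54. CDC20 is one of the loci altered for the MEP. At 48 hours the right end of XV entered, where the window over YRF1-8 had 5470, 6772 and 8572, ratios of 1.24 and 1.57. YRF1 genes encode the helicase of the subtelomeric Y' elements, which exist in near-identical copies, so their reads cannot be assigned to 1 end with certainty.

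Regions at least 1.2-fold lower were few: 3 at 24 hours and 1 at 48 hours. None of these was left after GC correction, which gave 0 lower regions at 24 hours and 2 at 48 hours, both on XIII. The lowest lay on XI, where the region held the centromere at 24 hours and ended just short of it at 48 hours, with a top window at 410001 to 435000 holding URB1 (ribosome assembly), ARC19 (actin nucleation), CCE1 (a mitochondrial Holliday junction resolvase) and LAC1. Its signal was 10870 in log phase, 8701 at 24 hours and 8786 at 48 hours, ratios of 0.800 (0.775 to 0.826) and 0.808 (0.783 to 0.835). On IV, the window at 485001 to 510000 with REG1, SES1, FAL1 and NSI1 had 10499, 8408 and 8547, ratios of 0.801 and 0.814. On XV, the window at 310001 to 335000 with TOP1, SIN3, RRP6 and PHO80 had 11647, 9595 and 9984, ratios of 0.824 and 0.857, and its region holds the centromere. In all 3 the ratio at 24 hours was as low as at 48 hours or lower.

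Windows near centromeres were lower than the rest of the arms. The 150 full windows outside XII centred within 25 kb of a centromere had a median signal of 13387 in log phase, 12580 at 24 hours and 12284 at 48 hours. Their median ratio was 0.940 at 24 hours and 0.912 at 48 hours, against 0.996 and 0.994 in the 1868 other arm windows. Of the 12 nuclear windows lower at 24 hours, 8 were pericentromeric, which is 5.33% of that class beside 0.495% of all nuclear windows; at 48 hours 3 of 12 were. After GC correction by deciles most of these calls were lost: 1 nuclear window was lower at 24 hours, which was pericentromeric, and 9 at 48 hours, of which 0 were. The pericentromeric median was below that of the other arm windows of its own chromosome on 15 of 16 chromosomes at each time, the exception being IV. Single chromosomes ran between 0.837 (XI) and 1.04 (I) at 24 hours and between 0.853 (XI) and 1.05 (I) at 48 hours.

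The low values lay within 25 kb of the centromere. Within 10 kb of the centromere the median ratio was 0.917 at 24 hours and 0.895 at 48 hours, and between 10 and 25 kb 0.959 and 0.933. Between 25 and 50 kb it was 1.03 at both times, and between 200 and 400 kb 0.979 and 0.974. GC content moved with it, at 37.4% in the innermost class, 38.5% between 25 and 50 kb and 38.1% between 200 and 400 kb. With GC corrected by deciles the pericentromeric median was 0.967 at 24 hours and 0.952 at 48 hours, against 1.00 at both times in the other arm windows. Neighbouring windows share 20 kb of sequence, so these counts are not of independent regions.

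**Figure D5:**
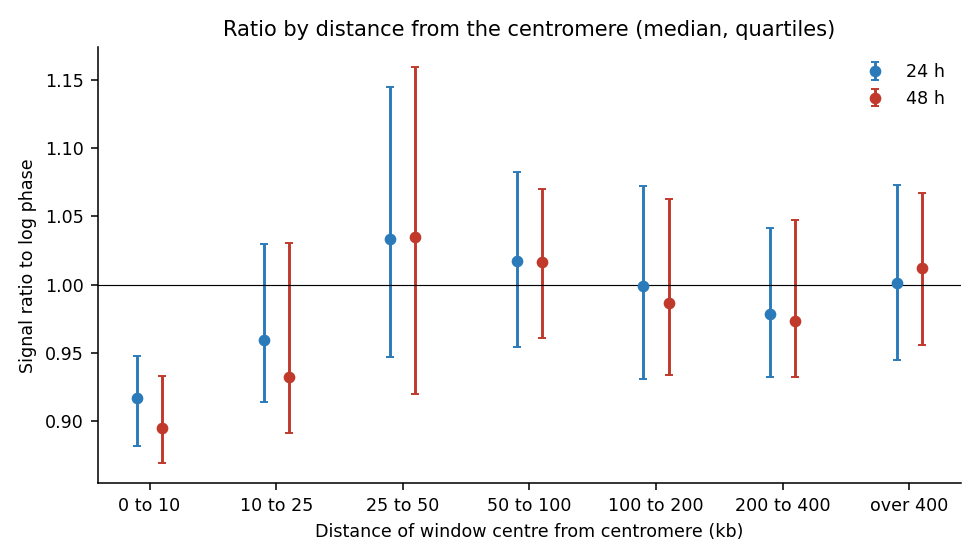
Ratio of signal to log phase against distance of the window centre from its centromere, nuclear windows outside chromosome XII and outside the ends, 24 hours left of 48 hours. Points are medians and bars the quartiles over windows; the class within 10 kb lies lowest, at 0.917 and 0.895.

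Chromosome ends varied from end to end. The 189 windows centred within 30 kb of an end had a median of 1.01 at 24 hours and 0.976 at 48 hours. The last full 5 kb bin could be read at 31 ends, and ran between 0.931 and 1.29 at 24 hours and between 0.831 and 1.62 at 48 hours, with 14 ends (45.2%) at or above 1.2-fold and 1 at least 1.2-fold lower at 48 hours. Of all 5 kb bins outside XII, 10.5% were at or above 1.2-fold at 48 hours. The 7 end bins that overlap a YRF1 gene lay between 1.28 and 1.62 at 48 hours with a median of 1.41. All 7 are among the 14, and reads of their near-identical Y' copies cannot be assigned to 1 end with certainty. These 7 include the right end of XII at 1.55, part of ChrXIIr, while the 10.5% leaves XII out. The other 24 lay between 0.831 and 1.38 with a median of 0.985. The highest was the right end of IV, with 4024 in log phase, 5209 at 24 hours and 6535 at 48 hours, and the lowest the left end of IV, with 2795, 2840 and 2323.

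Base composition and the log phase level both moved with the ratio. From the tenth of windows with the lowest GC content (35.0% to 37.1%) to that with the highest (39.5% to 42.4%), the median ratio ran from 0.934 to 1.09 at 24 hours and from 0.933 to 1.08 at 48 hours. The rank correlation of GC content with the ratio over the 2132 full windows was 0.42 at 24 hours and 0.41 at 48 hours. That of the log phase signal with the ratio was larger, 0.81 and 0.72, although the log phase signal is the ratio's denominator. The 213 full windows outside XII that were higher at 48 hours had a median log phase signal of 16793, against 12609 over all 2132, and a median GC content of 38.8% against 38.2%. Nuclear windows rich in reads in log phase thus tended to have the higher ratios. With GC corrected by deciles, 179 windows were higher at 24 hours and 337 at 48 hours.

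Annotated origins of replication showed no rise with the ratio. Windows away from the ends with no origin had medians of 0.993 at 24 hours and 0.995 at 48 hours, and those with 1 origin 0.994 and 0.989. Those with 2 origins had 0.966 and 0.968, and the 23 with 3 or more had 0.965 and 0.968. Of these 23, which overlap each other, none was past 1.2-fold, beside 8.58% higher at 24 hours and 13.7% at 48 hours over all nuclear windows, so few would be past it at the shares of the whole genome.

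The CUP1 and ENA tandem arrays did not share the gain of the rDNA. The 5 kb bin over CUP1-1 and CUP1-2, which encode copper metallothionein, had 9467 in log phase, 7927 at 24 hours and 8369 at 48 hours, ratios of 0.837 and 0.884. The median bin outside XII had 2508 in log phase. Windows nearest the sodium pump genes ENA1, ENA2 and ENA5 stood between 0.845 and 0.867 at 24 hours and between 0.880 and 0.898 at 48 hours.

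Genes that act in rDNA stability and circle retention, none of which lies on chromosome XII, lay on both sides of 1. Of 9 (SIR2, FOB1, RAD52, TOP1, SPT3, SAC3, MUS81, HST3 and HST4), SPT3, a subunit of the SAGA complex, lay in the only window past 1.2-fold at 48 hours, at 1.24 and 1.26. This is 11.1% of the 9, near the 13.7% of all nuclear windows. MUS81, a nuclease subunit close to SPT3 on IV, was at 1.198 and 1.17. The lowest was TOP1, topoisomerase I, at 0.873 and 0.880, and the median of the 9 was 0.980 and 0.975.

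Loci altered in the MEP strain, or used in it, differed from each other. The 5 kb bin with HO and SSB1 had 1378 in log phase, 2050 at 24 hours and 2476 at 48 hours, below the 2508 of the median bin outside XII. Its ratios were 1.49 (1.38 to 1.60) and 1.80 (1.68 to 1.93). The strain genotype gives HO as deleted, so these are not values of an intact HO gene. The bin with CDC20 and SNF4 had 3906, 5534 and 6531, ratios of 1.42 and 1.67. UBC9, whose bin had 2075, 2045 and 1821, stood at 0.985 and 0.877, and SCW11 at 1.23 and 1.22 in its bin. TOM70 and RPA190 carried fluorescent tags in reporter strains of the study, not in the background given above. TOM70, a mitochondrial import receptor, lay in a window at 0.978 and 0.941, and RPA190, the largest subunit of RNA polymerase I, at 1.12 and 1.14.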

How the data were processed

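Genomic DNA from wild type MEP diploids was extracted from agarose plugs, sonicated and sequenced as single-end reads in 1 lane. The submitters' processing notes name Trim Galore 0.6.6 and HISAT2 2.1.0 with genome build R64, while the methods name Bowtie 2 as the aligner; how duplicates and multi-mapping reads were treated is not given in the sources used here. The deposited values are signal: reads per 25 kb window, every 5 kb, which the authors multiplied by 1 size factor per library; which windows set that factor is not settled here. The methods describe leaving out Ty, LTR, mitochondrial, ENA and CUP1 windows, yet the table holds them.

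Here each aged signal was divided by log phase signal (Python 3.11.15, scipy 1.17.1). Read numbers came from the step between values (whole within 0.1 read), and exact Clopper-Pearson intervals (95%) from the split of reads. The 5 kb bins were differences of neighbouring windows. Code was tested on simulated data. Regions, lists and alternatives were chosen with earlier results of these data known. Named were all chromosomes, the rDNA, ChrXIIr, CUP1 and ENA windows, gene lists, and up to 5 highest and lowest merged regions (at least 3 windows past 1.2-fold) per time with genes of their top window. A gene took the window centred nearest to it. The end bins, the left flank and extreme bins were chosen after their values were seen, as were the counts of regions and of pericentromeric windows under alternatives.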

Additional observations from a re-analysis of the deposited data

How the results depend on the processing

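Scaling to each library's summed signal, rDNA and mitochondrial DNA included, lowered every ratio, by 1.77-fold at 24 hours and 2.80-fold at 48 hours. The median window outside XII then stood at 0.562 and 0.353. ChrXIIr turned to 0.438 at 48 hours and was 0.627 at 24 hours, the left arm of XII was 0.577 and 0.369, the rDNA 3.80 and 4.82, and mitochondrial DNA 3.04 and 9.84. For the rDNA, dropping windows with repeats gave 5.45 and 10.7, windows without overlap 5.46 and 10.8, GC correction 6.14 and 12.7, and 5 kb bins 14.0 at 48 hours. Ratios of summed signals gave 1.18 and 1.38 for ChrXIIr and 1.09 for the left arm at 48 hours; without the window holding rDNA-identical sequence ChrXIIr was 1.28 at 48 hours, an alternative added after seeing the data. At 1.1-fold, 517 windows were higher and 315 lower at 24 hours, and 561 and 356 at 48 hours. Lower windows numbered 1 at 24 hours after GC correction and 5 at 48 hours after recentring. Of 32 chromosome medians, GC correction moved 4, dropping repeat windows 6 and recentring 0. Moved here means beyond the counting error of 1 window of median depth, not of a chromosome median. In the same order, 7, 6 and 3 of the 32 crossed 1. No paired analysis was possible because each time had 1 library. Depth limits 5 kb bins outside XII to a median of 1520 reads at 24 hours and 1457.5 at 48 hours, and none of these ratios has a biological replicate.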
